A study of Mus musculus with 17 samples.

Results

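Fibroblast-like vascular nuclei were a small set of nuclei in a single-nucleus RNA data set of mouse brain. They were chosen by their marker counts among the 1226 nuclei to which the authors' label transfer had given the name vascular cells. In each of these nuclei the raw counts of unique molecular identifiers (UMIs, each standing for 1 captured RNA molecule) were summed over 3 sets of 6 genes. The fibroblast sum took Slc6a13, Bnc2, Dcn, Col1a1, Col1a2 and Ranbp3l. The endothelial sum took Flt1, Cldn5, Mecom, Adgrl4, Ptprb and Slco1a4, and the mural sum took Vtn, Pdgfrb, Rgs5, Atp13a5, Notch3 and Abcc9. A nucleus was kept when its fibroblast sum was at least 2 and larger than both other sums. The rule kept 545 nuclei, which were 44.5% of the vascular-labelled nuclei and 0.192% of all 284074 nuclei.

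Brain fibroblasts lie in the meninges and along the larger vessels, where they form collagen-rich matrix and carry transporters that exchange solutes with the cerebrospinal fluid. Meningeal fibroblasts also make retinoic acid, a signal to the developing cortex. Malat1, a noncoding RNA, is abundant in the nuclei of nearly all cell types. Antisense oligonucleotides (ASOs) bind a chosen RNA and lead to its cleavage, and the transferrin receptor (TfR) of brain endothelium is used to carry antibodies and other cargo across the blood-brain barrier.

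The study compared Malat1 knockdown by an oligonucleotide given alone or on 2 TfR-binding carriers. Nuclei came from the posterior brain of 17 female mice, 2.3 months old, all homozygous for a human TfR knock-in, which the saline controls carried as well. Each mouse received 4 weekly intravenous doses: saline (n = 4), Malat1 ASO at 2 mg per kg (n = 4), anti-TfR:Malat1 at 50 mg per kg (n = 6) or OTV:Malat1 at 50 mg per kg (n = 3), OTV standing for oligonucleotide transport vehicle, a TfR-binding carrier. The dose of free ASO was meant to match the ASO content of the carriers, per the series' design text. The brains were harvested and frozen 72 hours after dosing ended, and nuclei were sorted and captured in droplets. The labels do not say which animals were processed together, and the files hold 4 batches, of which the first has no OTV:Malat1 animal.

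Depth was low in these nuclei. The 545 nuclei held 793511 UMIs, with a median of 1265 UMIs and 870 genes per nucleus, against a median of 3307 UMIs over all nuclei. Each animal gave 16 to 56 of them. No barcode of these nuclei occurred in more than 1 animal. The authors' doublet call marked 32 of them (5.87%), against 16.8% of all nuclei. In the deposited clustering 538 of the 545 lay in cluster 14. That cluster held 7405 nuclei, more than all vascular-labelled nuclei, so it is not a class of fibroblast-like or vascular nuclei alone. One library stood apart in a gene that the rule did not use: Malat1 ASO replicate 1 had 0.589 CPM (UMIs of the gene per 1000000 UMIs) of Xist over all its nuclei, against 913 to 1301 CPM in the other 16 libraries. The summed level of 4 Y-linked genes was at most 0.267 CPM in every library. The differences of Malat1 ASO from saline in Malat1, in Neat1 and in shares of nuclei are also given without it. The count of genes past the edgeR threshold in that comparison, 0, stayed 0 without it. Medians of gene lists are given only with it.

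The nuclei fell well inside the rule for the most part. The median fibroblast sum was 5 UMIs, 500 nuclei had an endothelial sum of 0 and 368 had a mural sum of 0. Just inside the threshold were 87 nuclei with a fibroblast sum of 2. Just outside it were 50 vascular-labelled nuclei whose fibroblast sum of 1 exceeded both other sums. Malat1 took 9.55% of UMIs in the former and 7.85% in the latter. Mirrored rules gave 183 endothelial and 380 mural nuclei, which serve below as the neighbouring classes. Their median depths were 1091 and 911 UMIs, both below the 1265 of the fibroblast-like nuclei.

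The rule genes chose these nuclei, and the genes behind the authors' clusters are not stated, so the levels that follow describe the nuclei and carry no test. Slc6a13, a transporter of GABA and taurine, was at 887 ± 237 CPM (SD, n = 17 animals, as for the other means over animals in this description), against 0.288 CPM over all other nuclei. A UMI of Slc6a13 was seen in 61.8% of the nuclei, and in 0.0978% of neuron-labelled nuclei, whose median depth was 4614 UMIs against 1265 here. Dcn, the matrix proteoglycan decorin, was at 505 ± 215 CPM and was seen in 38.7% of the nuclei against 1.61% of neuron-labelled nuclei. Bnc2, a zinc finger transcription factor, was at 1257 ± 638 CPM and was seen in 22.9% of the nuclei against 1.92%. Col1a2, a chain of type I collagen, was at 296 ± 86.2 CPM, and its partner chain Col1a1 was at 48.5 ± 37.5 CPM. Of the endothelial genes Adgrl4 and Ptprb had no UMI, and of the mural genes Rgs5 had none.

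The 15 genes with the highest ratio of these nuclei to all other nuclei were named by rule, among genes at 100 CPM or more. Of these, 6 are solute carriers, among them Slc6a13, a rule gene that had helped to choose the nuclei. Col1a2, also on the list, is a rule gene too. Slc22a6 and Slc22a8 are organic anion transporters and were 2132 and 786 times their level in other nuclei, but Slc22a8 was at 259 CPM in endothelial nuclei against 215 ± 91.6 CPM here. Slc6a20a, a transporter of proline and related amino acids, was 665 times its level in other nuclei, yet it was at 1567 CPM in mural nuclei against 1560 ± 443 CPM here. Slc47a1, an exporter of organic cations, and Slc13a4, a sulfate transporter, stood at 581 and 500 times. Transcription factors on the list were Tbx18, at 296 ± 110 CPM, Foxd1, at 213 ± 95.2 CPM, and Prdm6, at 237 ± 135 CPM. Aldh1a2, which makes retinoic acid, was at 282 ± 126 CPM, with 0 UMIs in the endothelial nuclei. The others were Col4a6, Col1a2, Itih5, Aox3 and Tmem45a, the last at 107 CPM in mural nuclei against 102 ± 57.0 CPM here. Their levels across classes appear in the heat map of leading genes.

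**Figure D1:**
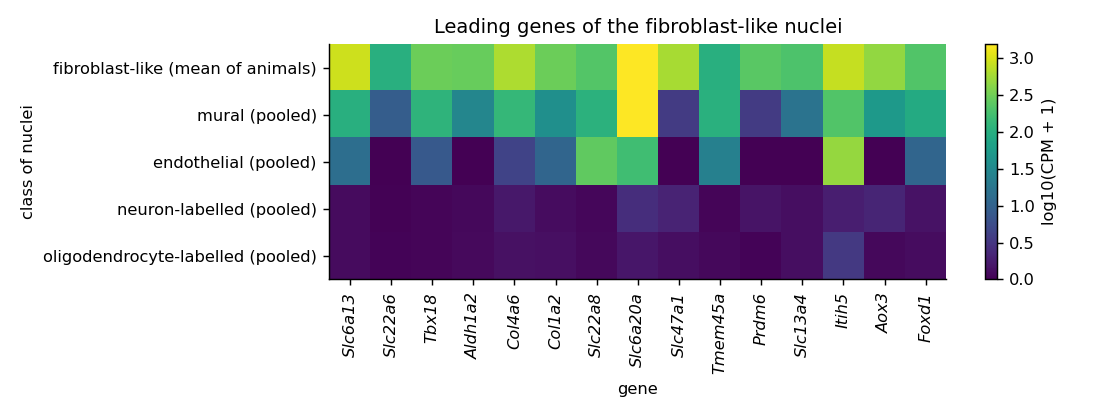
Levels of the 15 leading genes (columns) in 5 classes of nuclei (rows), as log10(CPM + 1). The fibroblast-like row is the mean over 17 animals and the other rows are pooled UMIs. Slc6a20a was as high in mural nuclei (1567 CPM) as in fibroblast-like nuclei (1560 CPM), and Slc22a8 was higher in endothelial nuclei (259 CPM) than in fibroblast-like nuclei (215 CPM).

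Matrix genes were read in 3 lists. Rule genes are counted in them, among these Col1a2 and Dcn, so part of the counts above both neighbouring classes was set by the choice of nuclei. The share of all genes above both classes was not computed. In such counts the level here was a mean over animals and the neighbouring levels were pooled UMIs. All 24 collagen genes had a UMI in these nuclei, and 22 of them were above both their endothelial and their mural level. Col4a6 and Col4a5, chains of basement membrane collagen, were at 636 ± 168 and 610 ± 124 CPM. Col25a1 was at 452 ± 252 CPM, and it was seen in 11.6% of these nuclei against 29.1% of neuron-labelled nuclei. Of 25 matrix glycoproteins, 15 were above both neighbouring classes, among them Lama1, a laminin chain, at 1242 ± 249 CPM. Gpc6, a glypican, was not, with 1381 ± 335 CPM here and 2024 CPM in mural nuclei. Of 18 genes of matrix remodelling, 13 were above both classes, including Cemip, which takes part in hyaluronan breakdown, at 1646 ± 658 CPM. Adam12, a metalloprotease, was at 1285 ± 440 CPM. Lox and Timp1 had no UMI.

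The next lists hold rule genes too, Slc6a13 among the transporters and Bnc2 among the transcription factors. The share of all genes above both classes was not computed for their counts either. Lists of other cell types also had genes above both, from 1 of 8 for neurons to 5 of 7 for choroid plexus. The counts therefore do not mark fibroblast identity by themselves. Among 22 solute transporters, 17 were above both neighbouring classes. Slc7a11, the cystine-glutamate exchanger, was at 2330 ± 648 CPM, against 120 CPM in mural and 13.5 CPM in endothelial nuclei. Among 25 transcription factors, 19 were above both classes. Foxp1 was at 2465 ± 685 CPM, with 1638 CPM in endothelial nuclei. Among 25 genes of retinoid handling and growth factors, 19 were above both. These included Bmp6, a bone morphogenetic protein, at 1365 ± 444 CPM, and Ptgds, the enzyme that makes prostaglandin D2, at 5691 ± 3071 CPM. Genes of fibroblast activation were low: none of 16 reached 100 CPM, and Acta2 and Lgals3 had no UMI.

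Tfrc, the gene of TfR, gave 7 UMIs in all, 0 or 1 in each animal, and could not be tested. The sources used here do not say how reads of the human knock-in allele were counted. The pooled Tfrc level was 195 CPM in endothelial nuclei and 28.1 CPM in mural nuclei, against a mean over animals of 7.87 CPM here. Of the 16 genes of transferrin, iron and antibody receptors, 3 reached 100 CPM. These were the ferritin genes Fth1 and Ftl1, at 526 ± 258 and 106 ± 67.9 CPM, and Lrp1, an endocytic receptor, at 333 ± 77.2 CPM. Fcgrt, the heavy chain of the neonatal Fc receptor that recycles antibodies, was at 27.0 ± 29.5 CPM, and its pooled endothelial level was 158 CPM.

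Transcripts of other cell types were present. The summed level of 8 neuronal markers was 2200 to 5266 CPM per animal, against 20711 CPM in neuron-labelled nuclei. The sum of 7 oligodendrocyte markers was 488 to 2495 CPM, against 17474 CPM in oligodendrocyte-labelled nuclei. The OTV:Malat1 animals had 1715 to 2495 CPM of this sum. Saline animals had 670 to 1941 CPM, those given Malat1 ASO 934 to 1946 CPM and those given anti-TfR:Malat1 488 to 1764 CPM. The sums for microglia and perivascular macrophages stayed at or below 428 and 254 CPM, and the macrophage marker Cd163 had no UMI. The choroid plexus genes Otx2 and Slc4a5 and the ependymal gene Ccdc153 had none either. The other genes of these lists were detected, 5 of 7 for choroid plexus and 5 of 6 for ependyma. Their sums were 127 to 393 CPM and 0 to 66.2 CPM per animal. Of the choroid plexus genes, 5 were above both their endothelial and their mural level. At least 3 UMIs of the oligodendrocyte markers occurred in 53 nuclei, of which 25 (47.2%) were called doublets. OTV:Malat1 replicate 2 held 13 of the 53 among its 31 nuclei.

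The 3 markers that gave the class its name were often detected in different nuclei. All 3 are rule genes. No expected overlap was computed, and the part of the choice of nuclei and of low depth was not tested. Slc6a13 was detected in 337 nuclei, Dcn in 211 and Bnc2 in 125. Slc6a13 and Dcn met in 142 nuclei, but Slc6a13 and Bnc2 in 26, all 3 in 9, and none of the 3 in 53. The nuclei were therefore described in sets, by which rule genes held most of the fibroblast sum. These sets were drawn after the values had been seen, and no test was run on them. Slc6a13 and Ranbp3l led in 331 nuclei, Bnc2 in 91, and Dcn with Col1a1 and Col1a2 in 76, while 47 had no single lead.

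Bnc2-led nuclei differed from the others in genes outside the rule. Slc47a1 was at 2622 CPM in them (pooled UMIs, as for all levels by set) and had no UMI in the nuclei led by Slc6a13 and Ranbp3l. Slc4a10, a sodium bicarbonate transporter, was at 5747 CPM against 46.8 CPM. Slc26a7, an anion exchanger, was at 748 CPM against 0, and Adamtsl3 was at 1857 CPM against 2.23. Slc47a1, Slc4a10, Adamtsl3 and Slc26a7 were each higher in Bnc2-led nuclei than in the other fibroblast-like nuclei of the same animal in 16 of the 16 animals that had any. Foxp1 was at 5802 CPM against 1586, Igfbp5, which binds insulin-like growth factors, at 1661 against 80.3, and Mgp, the matrix Gla protein, at 994 against 20.1. Of these, Slc47a1 and Mgp were in the list of arachnoid and dura markers, whose epithelial keratins Krt8 and Krt18 had no UMI in any of the 545 nuclei. Other members of that list differed: Cdh1, an epithelial cadherin, was at 131 CPM in Bnc2-led nuclei against 9.83 CPM in the others, from 24 and 6 UMIs, and Alcam was at 1191 against 1428 CPM.

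Other genes were low in the Bnc2-led nuclei, among them some but not all basement membrane genes. Lama1 gave 1 UMI in them (5.46 CPM), against 1550 CPM in nuclei led by Slc6a13 and Ranbp3l and 1970 CPM in those led by Dcn and Col1. Col4a6 was at 16.4, 792 and 951 CPM in the same order. Lama2, another laminin chain, was at 792 CPM in Bnc2-led nuclei and 1276 CPM in all the others, and was seen in 70.3% and 68.9% of them. Aldh1a2 was at 5.46, 417 and 213 CPM, and Slc7a11 at 81.9, 3257 and 2028 CPM. Cped1, in contrast, was at 2027, 2478 and 3988 CPM. Nuclei led by Slc6a13 and Ranbp3l held most UMIs of Trpm3, a calcium-permeable channel, at 10176 CPM against 1612 in Bnc2-led nuclei. Trpm3 was nevertheless seen in 149 of the 331 former and 57 of the 91 latter nuclei, and its level in the former ran from 215 to 18419 CPM between animals. The heat map of the sets shows these levels.

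**Figure D2:**
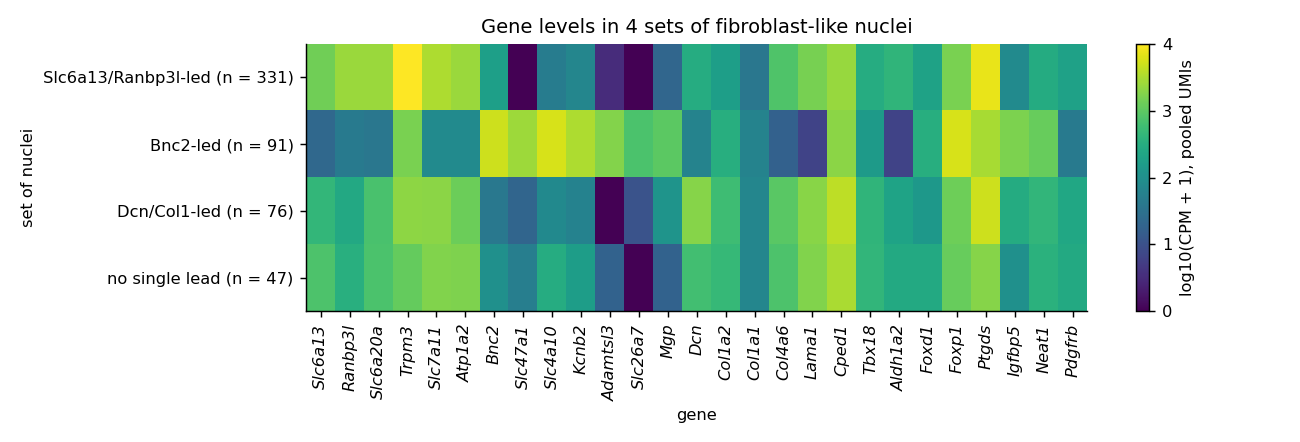
Levels of 27 genes (columns) in 4 sets of fibroblast-like nuclei (rows), pooled UMIs as log10(CPM + 1), with the number of nuclei beside each set. The Bnc2-led row is high in Slc47a1, Slc4a10, Adamtsl3 and Slc26a7 and low in Lama1, Col4a6, Aldh1a2 and Slc7a11, while Cped1 is at 2027 to 3988 CPM in the 4 rows.

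The Bnc2-led nuclei were also deeper and less surely labelled. Their median was 1905 UMIs, against 1173 in nuclei led by Slc6a13 and Ranbp3l. Their median label-transfer score was 0.534, against 0.976. Only 1 of the 91 was called a doublet. The authors' clustering placed all 91 in cluster 14, of 7405 nuclei, as it did 327 of the 331 led by Slc6a13 and Ranbp3l. Bnc2-led nuclei made up 24 of 149 for saline (16.1%), 32 of 131 for Malat1 ASO (24.4%), 28 of 181 for anti-TfR:Malat1 (15.5%) and 7 of 84 for OTV:Malat1 (8.33%). OTV:Malat1 replicate 2 had none among its 31 nuclei, and without it the OTV:Malat1 share was 7 of 53 (13.2%). By animal the shares of OTV:Malat1 and saline overlapped, with 4 of 28 and 3 of 25 nuclei in the other 2 OTV:Malat1 animals and 10.7% to 30.8% in saline.

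Malat1 (chromosome 19, 5795690 to 5802672, minus strand, a lincRNA in GENCODE M21 on GRCm38, the same assembly as the mm10 of the processing notes) was the target of all 3 treatments. In the 4 saline animals it took 11.1%, 9.92%, 11.3% and 9.23% of the UMIs of fibroblast-like nuclei. Under Malat1 ASO it took 9.44%, 8.36%, 10.2% and 7.17%, so that 2 animals lay below all saline values. Under anti-TfR:Malat1 the lowest animal was at 8.08%, the median at 8.98% and the highest at 10.5%, and 5 of 6 lay below all saline values. Under OTV:Malat1 it took 8.26%, 8.54% and 6.82%, all below the lowest saline animal.

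The group means were 10.4% ± 1.01 for saline (SD, n = 4), 8.78% ± 1.30 for Malat1 ASO (n = 4), 9.01% ± 0.859 for anti-TfR:Malat1 (n = 6) and 7.87% ± 0.923 for OTV:Malat1 (n = 3). Relative to the saline mean they came to 84.4%, 86.6% and 75.7%. By edgeR's quasi-likelihood test on UMIs summed per animal, Malat1 differed from saline by -0.30 on the log2 scale in Malat1 ASO (SE 0.14). The difference was -0.26 in anti-TfR:Malat1 (SE 0.13) and -0.40 in OTV:Malat1 (SE 0.15). The edgeR p before adjustment were 0.0427, 0.0561 and 0.0163. Adjusted by Benjamini-Hochberg for the 1283 genes tested, they were 0.999, 0.997 and 0.475, and none passed 0.05. Without Malat1 ASO replicate 1, the animal with almost no Xist, the ASO difference was -0.33.

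Exact two-sided permutation of animals, on log2(CPM + 1), gave differences of -0.25, -0.21 and -0.40 from saline in the same order. The exact p were 0.143, 0.0571 and 0.0571, and 0.214, 0.171 and 0.171 after adjustment over 6 pairs. Without Malat1 ASO replicate 1 the first difference was -0.29, with an exact p of 0.171. The OTV:Malat1 comparison cannot go below 0.0571, because 3 animals stand against 4. Each batch held 1 saline animal, at most 1 of Malat1 ASO and of OTV:Malat1, and 1 or 2 of anti-TfR:Malat1. The treated animal, or the mean of 2, was below saline in every batch that held both groups. These were 4 of 4 for Malat1 ASO, 4 of 4 for anti-TfR:Malat1 and 3 of 3 for OTV:Malat1. Exact permutation within batches gave p = 0.25 for OTV:Malat1 against saline, the smallest that 3 such batches allow. Within batches the log2 differences ran from -0.36 to -0.16, from -0.28 to -0.14 and from -0.44 to -0.26. With batch as a term in the edgeR fit, Malat1 had unadjusted p of 0.00193, 0.00625 and 0.00106, and adjusted p of 0.577, 0.999 and 0.240. The 3 comparisons share the saline animals. The oligodendrocyte sum was highest on average in OTV:Malat1, at 2015 CPM against 1233 in saline and 1048 in anti-TfR:Malat1. Its 4 tested genes were all higher in OTV:Malat1, with a median log2 difference of 0.81 from saline and 1.10 from anti-TfR:Malat1, and none was called. Without the oligodendrocyte-carrying nuclei the edgeR difference of Malat1 between OTV:Malat1 and saline was -0.35. The plot of Malat1 by animal shows the spread.

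**Figure D3:**
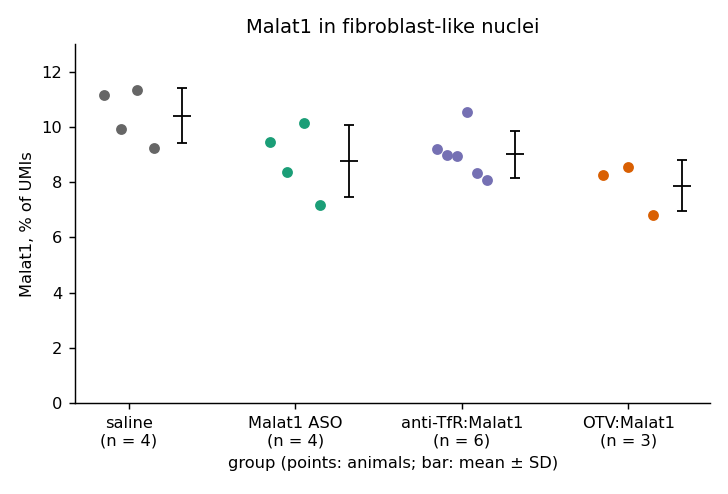
Malat1 as a percent of all UMIs of fibroblast-like nuclei (vertical axis) in each animal (points) of the 4 groups, with mean and SD beside them. The 3 OTV:Malat1 animals, at 6.82% to 8.54%, lie below the lowest saline animal at 9.23%, and the other treated groups overlap with saline.

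The treatments were hard to tell apart in these nuclei. In the edgeR fit the log2 difference was -0.14 between OTV:Malat1 and anti-TfR:Malat1 (SE 0.14) and -0.09 between OTV:Malat1 and Malat1 ASO (SE 0.15). The first of these ranged from -0.22 to -0.014 leaving out single animals. Anti-TfR:Malat1 differed from Malat1 ASO by 0.04 (SE 0.13). The exact permutation p for these 3 pairs were 0.119, 0.343 and 0.733, and adjusted values were 0.214, 0.411 and 0.733. These errors leave room for differences of the size seen against saline. In nuclei of 1000 or more UMIs, where 15 animals had at least 10 nuclei, the first 2 edgeR differences turned to 0.05 and 0.02. On log2(CPM + 1) the same 2 differences stayed negative in all 17 and all 15 alternatives run. There they ran from -0.26 to -0.08 and from -0.24 to -0.03. The edgeR differences and exact p given first did not use batch. Within batches, of 1 or 2 animals per group, OTV:Malat1 was below anti-TfR:Malat1 in 3 of 3 (log2 -0.26 to -0.12). It was below Malat1 ASO in 3 of 3 (-0.25 to -0.02), and anti-TfR:Malat1 was below Malat1 ASO in 2 of 4.

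Malat1 was also read nucleus by nucleus. Each nucleus was thinned to 500 UMIs, which left out none. Over the pooled nuclei of each group, the median nucleus then had 52 Malat1 UMIs for saline, 48 for Malat1 ASO, 43 for anti-TfR:Malat1 and 40 for OTV:Malat1. By animal, that median averaged 50.75 for saline, 45.25 for Malat1 ASO, 45 for anti-TfR:Malat1 and 39.5 for OTV:Malat1 (n = 4, 4, 6 and 3). Without thinning, the median nucleus of an animal held 10.4% ± 1.15 Malat1 in saline and 7.83% ± 1.17 in OTV:Malat1 (SD, n = 4 and 3). The bound for a low nucleus was the 10th percentile in saline, with the 4 animals weighted equally, which came to under 32 Malat1 UMIs. Low nuclei made up 3.57%, 7.69%, 5.71% and 12.5% of the saline animals' nuclei and 14.3%, 29.0% and 48.0% of the OTV:Malat1 animals' nuclei.

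The low share averaged 15.0% ± 6.83 in Malat1 ASO (n = 4) and 16.5% ± 9.13 in anti-TfR:Malat1 (n = 6), and both groups overlapped with saline. By exact permutation none of the 4 comparisons passed adjustment: p was 0.114 for Malat1 ASO, 0.0857 for anti-TfR:Malat1 and 0.0571 for OTV:Malat1 against saline, each 0.152 adjusted, and 0.167 for OTV:Malat1 against anti-TfR:Malat1. For OTV:Malat1 against saline 0.0571 is the smallest p possible. The bound came from the saline animals and was not redrawn when animals were exchanged. In the 3 comparisons with saline the groups were therefore not treated alike. The ASO difference of 7.58 percentage points was 9.73 without Malat1 ASO replicate 1, 4.72 without Malat1 ASO replicate 4 and 2.04 without Bnc2-led nuclei. The OTV:Malat1 difference of 23.1 percentage points was 14.3 without OTV:Malat1 replicate 3 and 6.75 in nuclei with a fibroblast sum of 4 or more. In nuclei of 1000 or more UMIs the comparison of the carriers turned to -1.03 percentage points.

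In pooled UMIs, Malat1 was compared by group in the 3 sets with a lead, and each was lower in OTV:Malat1 than in saline. Malat1 took 10.3% in saline and 8.19% in OTV:Malat1 among nuclei led by Slc6a13 and Ranbp3l. It took 11.3% and 6.56% among Bnc2-led nuclei, the latter from 7 nuclei, and 11.3% and 8.88% among nuclei led by Dcn and Col1. Under Malat1 ASO the same sets stood at 9.98%, 7.93% and 8.28%, and under anti-TfR:Malat1 at 8.98%, 8.85% and 8.70%, the last below the OTV:Malat1 value. That order turned in means over animals with at least 3 such nuclei. There the set led by Dcn and Col1 was at 8.79% in anti-TfR:Malat1 (6 animals) and 8.13% in OTV:Malat1 (2 animals). No test was run on the sets, since they were drawn after the values had been seen.

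Malat1 was next compared with its level in other classes of the same animals. Oligodendrocyte-labelled nuclei are those with the myelin-forming program, and in saline Malat1 took 10.2% ± 1.75 of their UMIs (SD, n = 4), close to the fibroblast-like 10.4%. Under OTV:Malat1 their level was 1.67% ± 0.205 (n = 3), and that of fibroblast-like nuclei was 7.87%. The log2 difference, fibroblast-like minus oligodendrocyte, was between -0.10 and 0.24 in saline animals and 2.12, 2.40 and 2.19 in OTV:Malat1 animals. The 2 groups did not overlap, and the means differed by 2.20. The exact permutation p was 0.0571, the smallest that 3 against 4 animals allow, and 0.0762 after adjustment over 8 tests.

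Against anti-TfR:Malat1, the same log2 difference was larger in OTV:Malat1 by 1.86, again without overlap (exact permutation p = 0.0238, the smallest possible, 0.0762 adjusted). In anti-TfR:Malat1 animals it was 0.38 ± 0.18 (n = 6) and exceeded every saline animal in 5 of 6, with an exact p of 0.0286 and an adjusted value of 0.0762. In Malat1 ASO animals it was -0.13 ± 0.11 (n = 4), and the difference of -0.17 from saline had an exact p of 0.114, adjusted 0.131. Without Malat1 ASO replicate 1 this difference was -0.14, in a range from -0.23 to -0.11 leaving out single animals. None of the 8 tests passed 0.05 after adjustment.

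Endothelial nuclei line the vessels and meet the injected agents first. Malat1 took 7.14% ± 0.976 of their UMIs for saline, 4.98% ± 1.10 for Malat1 ASO, 3.26% ± 0.985 for anti-TfR:Malat1 and 3.47% ± 0.904 for OTV:Malat1, from 3 to 20 nuclei per animal. The log2 difference, fibroblast-like minus endothelial, was 0.55 ± 0.18 in saline (n = 4) and 1.39 ± 0.36 in the 5 anti-TfR:Malat1 animals with at least 5 endothelial nuclei. All 5 lay above all saline animals (exact permutation p = 0.0159, the smallest possible, 0.0762 adjusted). It was 1.21 ± 0.25 in OTV:Malat1, where all 3 animals were above saline (exact p = 0.0571, the smallest possible). Malat1 ASO animals were at 0.83 ± 0.13, and 3 of 4 were above saline (exact p = 0.0571). Both of these were 0.0762 after adjustment. Without Malat1 ASO replicate 1 the ASO difference from saline was 0.26, against 0.28 with it. OTV:Malat1 and anti-TfR:Malat1 overlapped, with an exact p of 0.429.

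Mural nuclei are the pericytes and smooth muscle of the vessel wall. Malat1 took 12.8% ± 1.55 of their UMIs in saline and 10.1% ± 0.680 in OTV:Malat1. Fibroblast-like nuclei were below the mural nuclei of the same animal in all 17 animals, by -0.29 ± 0.04 for saline, -0.32 ± 0.05 for Malat1 ASO, -0.29 ± 0.11 for anti-TfR:Malat1 and -0.36 ± 0.08 for OTV:Malat1 on the log2 scale. No test of mural nuclei had been planned and none was run. RNA from other nuclei, as counted by the neuronal and oligodendrocyte sums above, also carries Malat1, and its part in these levels was not tested.

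**Figure D4:**
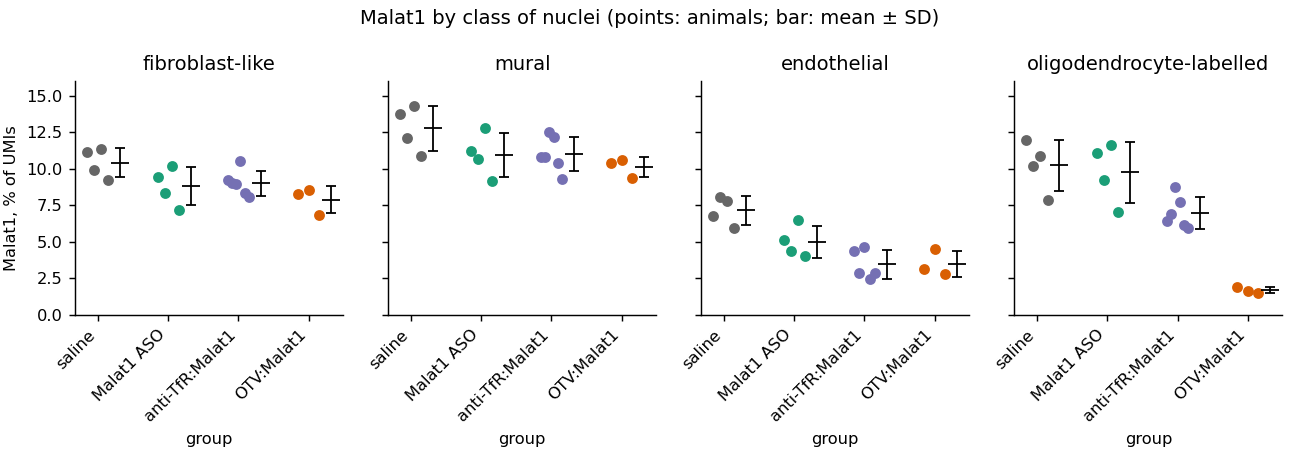
Malat1 as a percent of UMIs (vertical axis) per animal in 4 classes of nuclei (panels), with mean and SD per group; endothelial values are shown for animals with at least 5 such nuclei. In OTV:Malat1, oligodendrocyte-labelled nuclei average 1.67%, fibroblast-like nuclei 7.87% and mural nuclei 10.1%.

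The share of fibroblast-like nuclei among all nuclei was compared to see whether their number moved with treatment. It was 0.232% ± 0.0949 for saline (n = 4), 0.201% ± 0.0860 for Malat1 ASO (n = 4), 0.186% ± 0.105 for anti-TfR:Malat1 (n = 6) and 0.160% ± 0.00903 for OTV:Malat1 (n = 3). The groups overlapped, and exact permutation gave p of 0.657, 0.457 and 0.171 against saline and 0.905 between the carriers, all at 0.686 or above after adjustment. Without Malat1 ASO replicate 1 the ASO difference was -0.0673 percentage points, against -0.0307 with it. Batch 1, which held no OTV:Malat1 animal, had the highest share in each other group. It was 0.370% in saline, 0.311% in Malat1 ASO and 0.376% in anti-TfR:Malat1, and all animals of other batches were at 0.0932% to 0.215%. Sorting and capture also set how many nuclei of a class are caught, and their part was not tested.

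Beyond Malat1, 1282 genes were deep enough to test, and few differed. Against saline, edgeR called 0 genes in each of Malat1 ASO (0% of the genes tested), anti-TfR:Malat1 (0%) and OTV:Malat1 (0%). At an unadjusted p under 0.05 there were 41, 47 and 94 genes, and DESeq2 called 0, 0 and 1, the last being Lhfpl3. Between the carriers, OTV:Malat1 against anti-TfR:Malat1, edgeR called 2 genes (0.156%), both higher in OTV:Malat1, namely Ptgds and Lhfpl3. There 95 genes had an unadjusted p under 0.05, and DESeq2 called 2.

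The gene groups of fibroblast identity showed no call other than Ptgds. Rule genes were among those tested: Col1a2 in the collagens, Slc6a13 in the transporters, Bnc2 in the transcription factors and Dcn in the matrix glycoproteins. Nuclei were chosen by UMIs of these genes in every group, and the medians include them. Of 24 collagens 12 were tested, with a median log2 difference from saline of -0.03 for Malat1 ASO, -0.09 for anti-TfR:Malat1 and -0.08 for OTV:Malat1. The medians over all genes tested were -0.02, 0.00 and -0.02. Of 22 solute transporters 12 were tested, with medians of 0.02, 0.15 and 0.09. Of 25 transcription factors 14 were tested, with medians of 0.20, -0.11 and -0.32, and in OTV:Malat1 1 of the 14 was above saline, against 612 of all 1282 genes. Bnc2 of this list is higher in Bnc2-led nuclei by the way that set was drawn. Foxp1, Foxp2, Tbx15 and Eya2 of the list were higher in them as well, with Foxp1 at 5802 CPM against 1507 in the other members. Eya1 and Tbx18 of the same list were lower in them, at 235 against 816 CPM and at 153 against 331 CPM. The part of the share of Bnc2-led nuclei, which overlapped between OTV:Malat1 and saline animals, was not tested. Of 25 matrix glycoproteins 8 were tested, with medians of -0.06, -0.18 and -0.43. Of 18 remodelling genes 5 were tested, with medians of 0.07, -0.18 and -0.20, and of 25 retinoid and growth factor genes 11, with medians of -0.07, -0.06 and -0.14. None of the 21 interferon response genes or 16 activation genes was deep enough, and of 15 p53 targets only Sesn1, a stress-response gene, was.

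Arachnoid and dura markers included 3 tested genes, Slc47a1, Mgp and Alcam, with a median log2 difference of -1.48 between OTV:Malat1 and saline and of 0.04 and -0.17 for the other 2 treatments. None was called. Slc47a1 and Mgp were high in the Bnc2-led nuclei, which were 8.33% of the nuclei in OTV:Malat1 (13.2% without replicate 2) and 16.1% in saline, overlapping by animal. The part of that share in the difference was not tested.

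Ptgds (chromosome 2, 25466709 to 25470046, minus strand) encodes prostaglandin D2 synthase, a secreted protein of the meninges that also binds retinoids. It stood at 4866, 6451, 4136 and 7547 CPM in the saline animals and at 5467, 3695, 5639 and 4780 CPM in Malat1 ASO. In anti-TfR:Malat1 it ranged from 2172 CPM through a median of 3811 to 5465, and in OTV:Malat1 it was 15089, 10047 and 6071 CPM. All OTV:Malat1 animals were above all anti-TfR:Malat1 animals, but replicate 3 was within the saline range. The log2 difference between the carriers was 1.49 (SE 0.29, edgeR adjusted p = 0.0153). The 4 tested oligodendrocyte genes were also higher in OTV:Malat1 in this comparison, with a median log2 difference of 1.10 and none called. The part of oligodendrocyte RNA in the Ptgds difference was not tested.

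The single nucleus with most Ptgds gave 24.5%, 25.7% and 50.0% of the Ptgds UMIs of the 3 OTV:Malat1 animals. Without the 3 nuclei holding most, Ptgds was at 9150.1, 4544 and 2231 CPM in OTV:Malat1 and at 1193 to 3972 CPM in anti-TfR:Malat1, and the groups then overlapped. The means were then 5308 and 2190.1 CPM, against 10402 and 3825 CPM with all nuclei. The median nucleus of an animal was at 3873, 2407 and 1629 CPM in OTV:Malat1 and at 1222 to 2487 CPM in anti-TfR:Malat1. The call was kept without doublets (adjusted p = 0.0239) and without the oligodendrocyte-carrying nuclei (0.00629), both in edgeR. It was lost without OTV:Malat1 replicate 1 (edgeR adjusted p = 0.329), replicate 2 (0.0698) or anti-TfR:Malat1 replicate 5 (0.0547). With batch as a block it was 0.0654, in the 2 groups alone 0.0899, with at least 20 nuclei per animal 0.128 and without Bnc2-led nuclei 0.116. The log2 difference was between 1.10 and 2.09 in all 30 alternatives run.

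Lhfpl3 (chromosome 5, 22746059 to 23275597, plus strand) is a marker of oligodendrocyte precursors and was in that list, not in any fibroblast list. It gave 12, 18 and 12 UMIs in the OTV:Malat1 animals, at most 5 in any saline animal and at most 4 in any Malat1 ASO animal. In anti-TfR:Malat1 2 animals gave 1 UMI each and the others none. The log2 difference between the carriers was 5.21 (SE 0.86, edgeR adjusted p = 0.00359). A single nucleus gave 12 of the 12, 17 of the 18 and 12 of the 12 UMIs, and 2 of these 3 nuclei were called doublets.

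The precursor markers as a list were high in the same animals, and their part in the call was not tested. The sum of 6 such markers was 824 to 1150.1 CPM in OTV:Malat1 and 92.4 to 229 CPM over the other 14 animals. Lhfpl3 itself is counted in that sum. In OTV:Malat1 it averaged 378 CPM and the whole sum 960 CPM. Without doublets, and without the oligodendrocyte-carrying nuclei, Lhfpl3 was too low to enter the test. The call was also lost without OTV:Malat1 replicate 2 (edgeR adjusted p = 0.0564) and in nuclei of 1000 or more UMIs (0.0590). The log2 difference was between 4.59 and 5.84 in the 28 alternatives that tested the gene.

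Neat1 (chromosome 19, 5824708 to 5845478, minus strand), the noncoding RNA encoded next to Malat1 that forms nuclear paraspeckles, was at 890, 786, 810 and 410 CPM in saline. It was at 515, 779, 229 and 804 CPM in Malat1 ASO, from 133 to 624 CPM in anti-TfR:Malat1, and at 294, 325 and 375 CPM in OTV:Malat1. All OTV:Malat1 animals were below all saline animals, and the other 2 treated groups overlapped with saline. The log2 difference from saline was -1.16 in OTV:Malat1 (SE 0.41), with an edgeR p of 0.00912 before and 0.441 after adjustment. It was -0.92 in anti-TfR:Malat1 (SE 0.32, edgeR adjusted p = 0.997) and -0.49 in Malat1 ASO (SE 0.34, edgeR adjusted p = 0.999), the latter -0.45 without Malat1 ASO replicate 1 and -0.18 without Malat1 ASO replicate 3, in a range from -0.67 to -0.18 leaving out single animals. A single nucleus held 33 of the 85 Neat1 UMIs of saline replicate 1 and 15 of the 34 of replicate 2. Without the top nucleus of each animal saline was at 283 to 650.1 CPM and OTV:Malat1 at 178 to 297 CPM, so the groups overlapped. The means were then 492 and 253 CPM, against 724 and 331 CPM with all nuclei.

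Neat1 also differed between the sets of nuclei. It was at 1180 CPM in Bnc2-led nuclei, 437 CPM in those led by Dcn and Col1 and 292 CPM in those led by Slc6a13 and Ranbp3l. Without the Bnc2-led nuclei the difference of OTV:Malat1 from saline was -0.35 (edgeR adjusted p = 0.942), against -1.16 with them, and the difference between OTV:Malat1 and anti-TfR:Malat1 turned from -0.24 to 0.37. The plot of Ptgds and Neat1 by animal shows both genes.

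**Figure D5:**
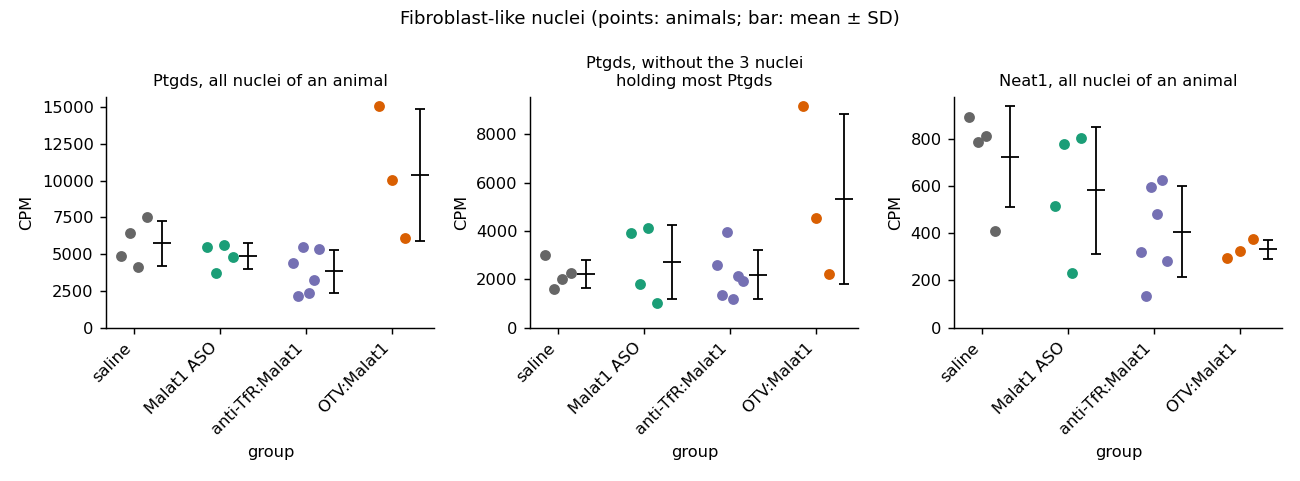
Levels in CPM (vertical axes, each from 0) per animal with mean and SD per group: Ptgds over all fibroblast-like nuclei, Ptgds without the 3 nuclei of each animal that held most of it, and Neat1. OTV:Malat1 is at 6071 to 15089 CPM of Ptgds in the left panel and reaches down to 2231 CPM in the middle one; Neat1 is at 294 to 375 CPM in OTV:Malat1.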

How the data were processed

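Nuclear RNA of 17 animals was read as the deposited raw UMI counts per gene and nucleus. Cell Ranger 6.0.1, Seurat 4 and mm10 are named in the submitters' processing notes, and the counting settings are not given in the sources used here. Cell labels, label-transfer scores, doublet calls, clusters and batches are the authors' deposited values, and the tools behind the labels and doublets and the meaning of the batches are not given either. Members and gene lists were chosen with earlier results of these data known.

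UMIs were summed per animal over at least 10 nuclei and tested with edgeR 4.0.16 (quasi-likelihood, filterByExpr, TMM, all groups in 1 fit, Benjamini-Hochberg threshold 0.05). DESeq2 1.42.0 was the other tool. Single values were tested by exact two-sided permutation of animals (scipy 1.17.1) on log2(CPM + 1), with a pseudocount of 1. Malat1, Neat1 and Tfrc were always named. Also named were up to 3 called genes each way whose groups did not overlap, the 15 leading genes and the 3 most abundant genes of each list, of which examples are printed; genes of the sets of nuclei, and others given as examples, were chosen after their values were seen. The edgeR steps were run on simulated counts with known changes, a single spread for all genes and no batch differences. That run checked the steps and does not give their power in these data. Alternatives covered scaling, filters, blocks, depth, doublets, stricter membership and leaving out each animal. Doublets were kept. P-values measure the spread between these animals, and intervals of depth cover counting error only.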

Additional observations from a re-analysis of the deposited data

Results flagged for a closer look

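For 24 combinations of a measure and a group of 4 to 6 animals, the highest or lowest animal was compared with the rest by the gap to its nearest neighbour relative to the whole range. Malat1 in fibroblast-like nuclei minus oligodendrocyte-labelled nuclei, on the log2 scale, was 0.035 in anti-TfR:Malat1 replicate 3, while the other 5 animals of the group were at 0.38 or above. Lhfpl3 was at 44.3 CPM in anti-TfR:Malat1 replicate 2, from 1 UMI, while 4 of the other animals had none. By chance this comparison marks about 5 percent of groups, and here it marked 2 of 24.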

How the results depend on the processing

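Over 38 results and 836 alternative values, 782 were counted as unchanged. For a difference this meant the same direction and the same side of the threshold. For a count of called genes it meant an equal or similar count. The exact tests of OTV:Malat1 against saline could not go below p = 0.0571, so their side of the threshold was fixed in advance. Malat1 stayed below saline in all 3 treatments under every alternative run, and no adjusted p passed 0.05. The edgeR log2 differences ran from -0.38 to -0.17 (Malat1 ASO), -0.35 to -0.19 (anti-TfR:Malat1) and -0.51 to -0.28 (OTV:Malat1). On log2(CPM + 1) they ran from -0.33 to -0.14, -0.29 to -0.14 and -0.47 to -0.29 in the same order. The cause of the changes that follow was not tested.

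The count of genes called for OTV:Malat1 against saline, 0, became 1 with DESeq2, 16 with no filter, 6 in the 2 groups alone, 3 in nuclei of 1000 or more UMIs and 1 at a fibroblast sum of 4 or more, and ranged from 0 to 1 leaving out single animals. For OTV:Malat1 against anti-TfR:Malat1, 2, it became 13 with no filter, 3 (Ptgds, Lhfpl3 and Ctnna2) at a fibroblast sum of 4 or more, and 1 with batch as a block, in the 2 groups alone, with 20 or more nuclei per animal, without doublets, in nuclei of 1000 or more UMIs, without oligodendrocyte-carrying nuclei and without Bnc2-led nuclei, and ranged from 0 to 3 leaving out single animals. The last 2 exclusions were chosen after seeing the data.

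Correlations between animals gave little sign of pairing by replicate number: same-numbered pairs ran from -0.17 to 0.18, with 3 of 21 above 0.1. They cannot show whether Malat1 alone was paired. For saline and Malat1 ASO the replicate number was also the batch number. Both groups had the same order of Malat1, highest in replicate 3, followed by replicates 1, 2 and 4. With the replicate block the 2 counts were 3 and 1, Ptgds had an edgeR adjusted p of 0.0535 and Lhfpl3 of 0.0593.

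Small differences changed sign. Malat1 in anti-TfR:Malat1 against Malat1 ASO was -0.11 with no filter, -0.11 with 20 or more nuclei, -0.030 in nuclei of 1000 or more UMIs, -0.0012 without oligodendrocyte-carrying nuclei and -0.037 without Bnc2-led nuclei, and ranged from -0.068 to 0.13 leaving out single animals. On log2(CPM + 1) it was -0.045 without Bnc2-led nuclei and ranged from -0.049 to 0.12. In the edgeR fit, OTV:Malat1 against anti-TfR:Malat1 was 0.053, and against Malat1 ASO 0.023, in nuclei of 1000 or more UMIs. The latter was 0.026 at a fibroblast sum of 4 or more and ranged from -0.21 to 0.0035 leaving out single animals. On log2(CPM + 1) both differences stayed negative in every alternative run. Neat1 between the carriers was 0.10 at that sum and 0.37 without Bnc2-led nuclei. As a percent of vascular-labelled nuclei, the share differed from saline by 3.43 points in Malat1 ASO and 1.48 in anti-TfR:Malat1. Leaving out single animals, the share of all nuclei differed by -0.0673 to 0.0152 points in Malat1 ASO and, between the carriers, by -0.0445 to 0.0120, and within batches by 0.0206. The low-Malat1 share between the carriers was -1.03 points in nuclei of 1000 or more UMIs. With 16 to 56 nuclei per animal at a median of 1265 UMIs, most genes of the lists could not be tested.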
